A study of Mus musculus with 6 samples.

Results

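Interferon-stimulated antiviral genes were followed here in hair follicle stem cells (HFSCs) sorted from mouse skin. The set is a list of 42 genes named for their known place in the interferon response, by a rule that uses no measured value but was written with earlier results of these data known: 4 transcription factors, 4 sensors of nucleic acid, 19 effectors, 8 genes for ISG15, ubiquitin and ADP-ribose modification, and 7 other induced genes. Of these, 41 were among the 30738 genes measured on the arrays, and Ifi44 was not analysed here. HFSCs came from the dorsal skin of female mice of strain B6;129S4-Dab2tm1Cpr/J at postnatal day (PD) 35, and each group had 3 arrays, which the labels call biological replicates. The Dab2-cKO mice carried floxed Dab2 alleles together with a tamoxifen-inducible Cre driven by the keratin 14 promoter, and the WT mice carried the floxed alleles without Cre. Both groups received tamoxifen at 75 mg/kg for 5 days. The keratin 14 promoter acts in basal keratinocytes across the epidermis and the follicle, so recombination was not limited to HFSCs, and the Cre protein was present in Dab2-cKO alone. At this age the study staged the WT follicles as anagen and the Dab2-cKO follicles as telogen, so genotype and hair cycle phase cannot be told apart in these arrays.

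Interferons are secreted proteins that bind receptors on the cell surface and, through the kinases JAK1 and TYK2, activate transcription factors such as STAT2. With IRF9, STAT2 is part of a complex that enters the nucleus and binds the interferon-stimulated response element in the promoters of many genes. Many of those genes encode proteins that sense viral RNA, degrade it, stop its translation or block entry and budding of viruses, and others encode the pathway's own transcription factors and its brakes. Stem cells of several tissues are known to hold a part of this gene set at a steady level without infection.

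Dab2 itself had log2 signals of 8.86, 8.76 and 8.94 on the arrays labelled Dab2-cKO, against 6.61, 6.49 and 6.46 on the WT arrays. The difference of 2.34 ± 0.08 log2 units (SE of limma, adjusted p = 1.35e-05) goes against the labels, and every direction below rests on the labels as given: Dab2-cKO and WT name arrays by their labels. Probes outside the deleted exons cannot check a deletion, and which exons the array reads was not tested. Arrays of a group correlated at 0.991 or above and arrays of different groups at 0.936 or below. A level of 7.26 log2 units, under which the means of 95% of 1532 genes for olfactory and vomeronasal receptors lay, was used as the background level. A fold change is given as at least N-fold where the dimmer group lay below that level, and none is given where both groups did.

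Promoter sequences are shown first, because the response element is the feature that many of these genes are known to share. RefSeq promoters of build GRCm38.p6, from 250 bases before to 50 bases after the start of the gene, were found for 31 of the 42 genes. They were searched on both strands for the core of the response element, GAAA, any 2 bases, GAAA, where matches may overlap. These letters stood in a promoter of 14 of the 31 genes (45.2%), against 3.99% of all 27025 genes with a promoter. Printed below, 5′ to 3′ and in lower case with the matched letters in capitals (TTTC, any 2 bases, TTTC where the match is on the other strand), are the 250 bases before the start of Bst2, the gene with the highest difference of the set, and shorter windows of up to 20 bases on each side of the matches in the promoters of 8 other genes whose matches all lay before the start.
Bst2 (chr8:71537473-71537722, minus strand): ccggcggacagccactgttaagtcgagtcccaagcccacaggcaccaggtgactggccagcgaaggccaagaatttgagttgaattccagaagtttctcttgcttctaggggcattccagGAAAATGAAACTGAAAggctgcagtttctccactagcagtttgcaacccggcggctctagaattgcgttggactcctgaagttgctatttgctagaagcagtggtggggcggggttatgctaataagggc
Isg15 (chr4:156200855.0-156200916.0, minus strand): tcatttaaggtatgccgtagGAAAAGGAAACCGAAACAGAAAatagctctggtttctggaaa
Ifit1 (chr19:34640765.0-34640833.0, plus strand): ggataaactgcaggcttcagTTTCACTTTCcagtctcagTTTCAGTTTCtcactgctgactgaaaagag
Ifit3 (chr19:34583353.0-34583436.0, plus strand): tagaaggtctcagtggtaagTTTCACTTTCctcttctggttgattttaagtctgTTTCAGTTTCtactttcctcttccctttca
Oas1a (chr5:120907526.0-120907565.0, minus strand): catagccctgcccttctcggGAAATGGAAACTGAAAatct
Oas1g (chr5:120887614.0-120887651.0, minus strand): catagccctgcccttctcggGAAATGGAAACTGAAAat
Oas3 (chr5:120777705.0-120777754.0, minus strand): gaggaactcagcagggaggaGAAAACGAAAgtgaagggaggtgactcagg
Rsad2 (chr12:26456543.0-26456592.0, minus strand): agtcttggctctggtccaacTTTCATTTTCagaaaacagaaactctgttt
Stat2 (chr10:128270256.0-128270305.0, plus strand): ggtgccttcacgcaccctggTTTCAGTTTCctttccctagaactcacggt
In Bst2 the overlapping matches began 130 and 124 bases before the start. Isg15 held 3 overlapping matches from 78 bases before the start, and Ifit1 and Ifit3 held 2 separate matches each, 104 and 85 bases before the start in Ifit1 and 156 and 122 in Ifit3. Oas1a and Oas1g had the same run of letters at nearly the same place, 20 and 18 bases before their starts. Ddx58, Eif2ak2, Ifih1 and Ifitm3 had matches only after the start, and Trim30a had one 36 bases before one of its starts and one 3 bases after the other. These are not printed. A second set of letters, that of the gamma activated site (TTCC, any 3 bases, GAA), stood in promoters of 5 of the 31 genes (16.1%), against 4.53% of all genes. The difference between groups in the 14 genes with the response element letters had a median of 2.97 log2 units and ran from 0.36 for Oas3 to 6.47 for Bst2. In the 16 measured genes whose promoter window lacked the letters the median was 2.56, from 0.40 for Ifitm1 to 3.99 for Ifit2. The letters are a match and not a measured binding site, and Oas3 and Bst2 show that both ends of the range had them.

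All 41 measured genes were higher on the arrays labelled Dab2-cKO at an adjusted p under 0.05, where 18.2% of all genes tested were higher and 32.4% were lower. In all 41 the lowest of the 3 Dab2-cKO arrays lay above the highest of the 3 WT arrays, which 22.2% of all genes did. With centring on positive control rows, which called 2599 of all 30738 genes higher, 37 of the 41 were higher, without Irf1, Oas3, Ifitm1 and Mx1. With the replicate number as a block, which called 4704 genes higher, 39 of the 41 were, without Oas3 and Ifitm1. The median difference was 2.56 log2 units over the 41 genes, against -0.14 over all genes tested. It was over 1 log2 unit in 37 genes, over 2 in 29 and over 3 in 16. Group means of the 41 genes had a median of 8.62 log2 units in Dab2-cKO, from 4.83 to 13.7, and of 5.76 in WT, from 4.47 to 7.41. In Dab2-cKO 30 of the genes lay above the background level, and in WT only Isg15 did. The remaining 11 lay below it in both groups, so their values are differences between dim signals. Ordered by difference among all genes tested, Bst2 was in place 5 from the top, Ifit1 in place 11, Ifit3 in place 35, Usp18 in place 49 and Stat2 in place 51, and 27 of the 41 stood among the first 500. In bulk arrays a larger number of cells that express a gene and more RNA per cell cannot be told apart.

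**Figure D1:**
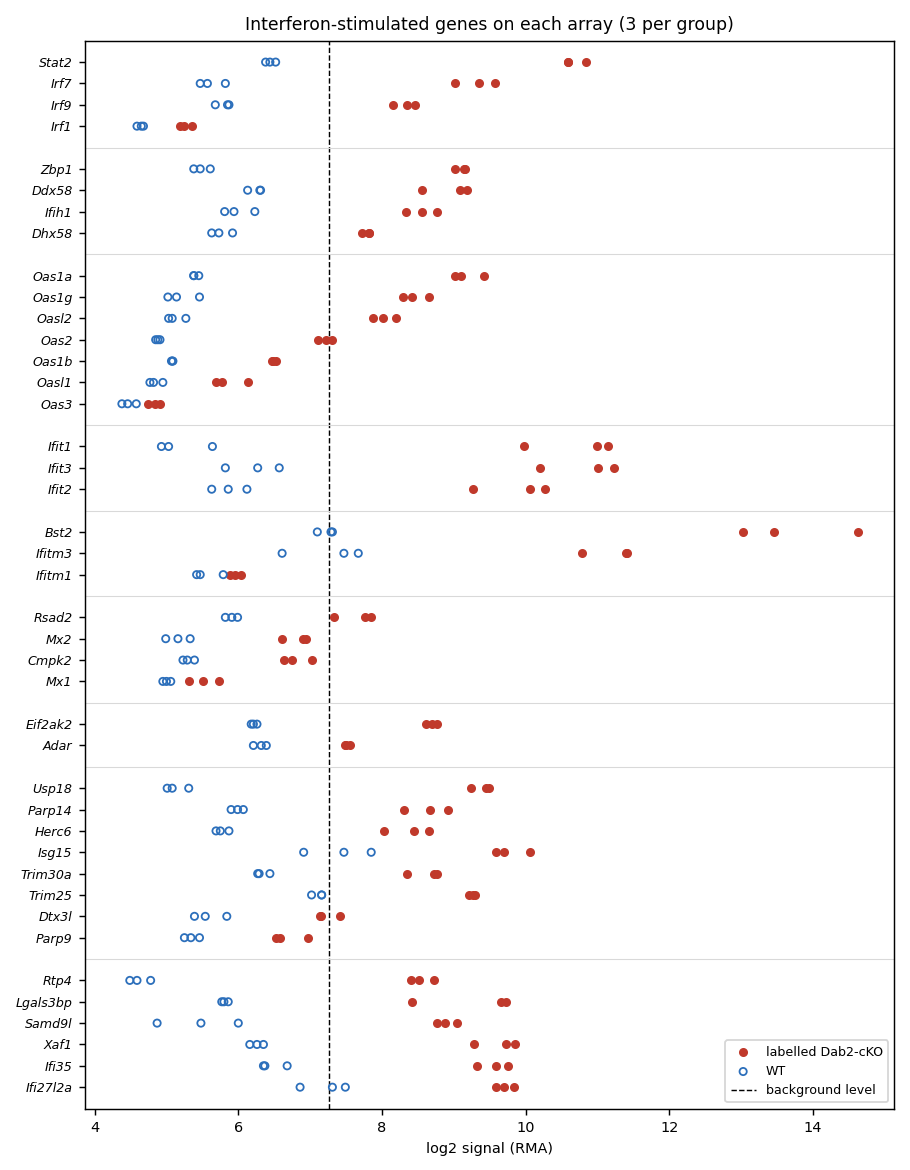
Log2 signal of each of the 41 genes on the 3 arrays labelled Dab2-cKO and the 3 WT arrays, by class, with the background level of 7.26 marked. Every Dab2-cKO point lies to the right of every WT point of the same gene, and 11 genes have both groups below the background level.

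The transcription factors differed widely among themselves. Stat2, a partner of IRF9 in the interferon-activated complex, had log2 signals of 10.84, 10.59 and 10.59 on the arrays labelled Dab2-cKO, against 6.38, 6.44 and 6.52 in WT. It was at least 10.6-fold higher (difference 4.23 ± 0.10 log2 units, adjusted p = 2.74e-06). Irf7, the factor that amplifies production of interferon alpha, had 9.57, 9.01 and 9.35 in Dab2-cKO, against 5.82, 5.47 and 5.57 in WT, at least 4.14-fold higher (3.69 ± 0.16, adjusted p = 2.94e-05). Irf9, the DNA-binding subunit of the complex, had 8.46, 8.15 and 8.35 in Dab2-cKO, against 5.68, 5.85 and 5.87 in WT, at least 2.08-fold higher (2.52 ± 0.11, adjusted p = 2.46e-05). These 3 genes had no Dab2-cKO array near a WT array, and 22.2% of all genes tested had every Dab2-cKO array above every WT array. Irf1, which is known above all for the response to interferon gamma, had 5.19, 5.36 and 5.25 in Dab2-cKO, against 4.59, 4.65 and 4.68 in WT. Its difference of 0.62 ± 0.08 (adjusted p = 0.00106) lay wholly below the background level, and a second, dimmer row of Irf1 had a difference of -0.09. The 3 other factors lay above the background level in Dab2-cKO and below it in WT.

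All 4 sensors were above the background level on the arrays labelled Dab2-cKO and below it in WT. Ddx58 encodes RIG-I, which binds the ends of uncapped viral RNA, and had log2 signals of 9.19, 8.55 and 9.08 in Dab2-cKO, against 6.13, 6.31 and 6.30 in WT. It was at least 3.2-fold higher (2.69 ± 0.18, adjusted p = 0.000108). Ifih1 encodes MDA5, the sensor of long double-stranded RNA, and had 8.56, 8.33 and 8.77 in Dab2-cKO, against 5.81, 6.23 and 5.94 in WT, at least 2.45-fold higher (2.56 ± 0.15, adjusted p = 7.66e-05). Dhx58 encodes LGP2, their relative without a signalling domain, and had 7.72, 7.82 and 7.82 in Dab2-cKO, against 5.92, 5.63 and 5.73 in WT, at least 1.44-fold higher (2.03 ± 0.09, adjusted p = 3.37e-05). No array labelled Dab2-cKO overlapped a WT array in any of these 3 helicases, as in every measured gene of the set. Of all genes tested, 22.2% had every Dab2-cKO array above every WT array. Zbp1, a sensor of nucleic acid in the Z form that can start necroptosis, had 9.14, 9.01 and 9.16 in Dab2-cKO, against 5.61, 5.47 and 5.38 in WT. It had the highest difference of the 4 sensors, 3.62 ± 0.09 (adjusted p = 3.83e-06), at least 3.58-fold.

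Several enzymes of the OAS family, though not all of its proteins, make short oligoadenylates that switch on the ribonuclease RNase L. The family's 7 measured genes, all on chromosome 5, had a median difference of 2.34 log2 units. Oas1a had log2 signals of 9.42, 9.01 and 9.10 on the arrays labelled Dab2-cKO, against 5.38, 5.45 and 5.38 in WT, at least 3.77-fold higher (3.77 ± 0.12, adjusted p = 8.39e-06). Oas1g had 8.65, 8.29 and 8.42 in Dab2-cKO, against 5.46, 5.02 and 5.14 in WT, at least 2.28-fold higher (3.25 ± 0.15, adjusted p = 3.1e-05). These near-identical copies may share probes, so their values may not be separate measurements. Oasl2, an OAS-like protein with ubiquitin-like domains, had 8.20, 7.87 and 8.01 in Dab2-cKO, against 5.03, 5.08 and 5.27 in WT, at least 1.7-fold higher (2.90 ± 0.11, adjusted p = 1.9e-05). The other 4 lay below the background level in both groups: Oas2 had a difference of 2.34, Oas1b, known in mice for resistance to flaviviruses, one of 1.41, and Oasl1 one of 1.02. Oas3 had the lowest difference of the whole set, 0.36 ± 0.09 (adjusted p = 0.0136), with signals of 4.75, 4.91 and 4.84 in Dab2-cKO, against 4.58, 4.38 and 4.46 in WT.

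The IFIT proteins bind viral RNA that lacks the cap methylation of the host, and their 3 genes, neighbours on chromosome 19, had a median difference of 4.59 log2 units. Ifit1 had log2 signals of 10.99, 9.98 and 11.15 on the arrays labelled Dab2-cKO, against 5.64, 4.93 and 5.03 in WT, at least 10.9-fold higher (5.51 ± 0.34, adjusted p = 9.19e-05). Ifit3 had 11.00, 10.20 and 11.23 in Dab2-cKO, against 6.57, 6.27 and 5.82 in WT, at least 11.7-fold higher (4.59 ± 0.31, adjusted p = 0.00012). Ifit2 had 10.06, 9.26 and 10.27 in Dab2-cKO, against 5.86, 6.12 and 5.63 in WT, at least 6.06-fold higher (3.99 ± 0.27, adjusted p = 0.00013). All 3 had their lowest Dab2-cKO signal on the array of replicate 2, still more than 3 log2 units above the highest WT array. Ifit3b, a close copy of Ifit3 outside the set, had a row of its own, with 9.60, 7.53 and 9.06 in Dab2-cKO, against 5.43, 5.33 and 5.71 in WT. Its difference was 3.24 ± 0.50 (adjusted p = 0.00267). Whether probes are shared between these copies was not tested.

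The membrane effectors held the gene with the highest difference and one of the lowest. Bst2 encodes tetherin, which holds budding virus particles at the cell surface, and had log2 signals of 13.45, 13.03 and 14.62 on the arrays labelled Dab2-cKO, against 7.29, 7.10 and 7.31 in WT. It was at least 86.8-fold higher (6.47 ± 0.39, adjusted p = 7.77e-05), and it was also the gene whose Dab2-cKO arrays were spread the most, with an SD of 0.83. Ifitm3, which hinders fusion of viruses in endosomes, had 11.39, 11.41 and 10.78 in Dab2-cKO, against 6.61, 7.47 and 7.67 in WT, at least 15.2-fold higher (3.94 ± 0.31, adjusted p = 0.000216). Ifitm1, its relative at the cell surface, had 5.95, 5.88 and 6.04 in Dab2-cKO, against 5.42, 5.79 and 5.47 in WT. Its difference of 0.40 ± 0.12 (adjusted p = 0.0304) was the least firm of the 41, with all arrays dimmer than the background level and the nearest ones almost level.

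The 2 Mx genes and the 2 genes of nucleotide metabolism were dim. Rsad2 encodes viperin, which makes a chain-terminating nucleotide, and had log2 signals of 7.85, 7.33 and 7.77 on the arrays labelled Dab2-cKO, against 5.99, 5.91 and 5.82 in WT, at least 1.31-fold higher (1.74 ± 0.15, adjusted p = 0.000276). Mx2, a dynamin-like GTPase, had 6.61, 6.90 and 6.94 in Dab2-cKO, against 5.33, 4.99 and 5.16 in WT (1.66 ± 0.13, adjusted p = 0.000207). Cmpk2, the mitochondrial nucleotide kinase that neighbours Rsad2, had 6.63, 6.75 and 7.02 in Dab2-cKO, against 5.39, 5.23 and 5.29 in WT (1.50 ± 0.12, adjusted p = 0.0002). Mx1, the nuclear Mx protein known for restriction of influenza virus, had a difference of 0.51 ± 0.12 (adjusted p = 0.0127). Of these 4, Rsad2 alone crossed the background level, and it did so in Dab2-cKO only. The 2 genes for binding of double-stranded RNA were above that level in Dab2-cKO. Eif2ak2 encodes PKR, the kinase that stops translation, and had 8.70, 8.61 and 8.77 in Dab2-cKO, against 6.26, 6.21 and 6.18 in WT, at least 2.7-fold higher (2.48 ± 0.07, adjusted p = 7.63e-06). Adar, which edits adenosine to inosine and so marks RNA as the cell's own, had 7.56, 7.49 and 7.50 in Dab2-cKO, against 6.21, 6.32 and 6.39 in WT, at least 1.19-fold higher (1.21 ± 0.08, adjusted p = 9.88e-05).

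Among the 8 genes for protein modification the differences ran from 1.35 to 4.26 log2 units. Usp18, which removes ISG15 from proteins and also blocks the interferon receptor, had log2 signals of 9.45, 9.49 and 9.24 on the arrays labelled Dab2-cKO, against 5.08, 5.31 and 5.01 in WT, at least 4.38-fold higher (4.26 ± 0.11, adjusted p = 5.07e-06). Parp14, an ADP-ribosyltransferase, had 8.67, 8.30 and 8.92 in Dab2-cKO, against 5.99, 6.07 and 5.90 in WT, at least 2.58-fold higher (2.64 ± 0.16, adjusted p = 7.98e-05). Herc6, the mouse ligase for ISG15, had 8.45, 8.03 and 8.66 in Dab2-cKO, against 5.69, 5.75 and 5.87 in WT, at least 2.17-fold higher (2.61 ± 0.16, adjusted p = 9.51e-05). All 3 crossed the background level, above it in Dab2-cKO and below it in WT. Isg15, the ubiquitin-like modifier itself, was the only gene with a WT mean above the background level, with 10.06, 9.58 and 9.70 in Dab2-cKO, against 7.47, 6.91 and 7.85 in WT, and it was 5.17-fold higher (2.37 ± 0.25, adjusted p = 0.000641). Trim25, the ubiquitin ligase that acts on RIG-I, was at least 3.97-fold higher and Trim30a at least 2.56-fold. Parp9 and its partner ligase Dtx3l, which are transcribed from neighbouring starts, had differences of 1.35 and 1.64, and the means of both genes lay below the background level in each group.

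The other induced genes had a median difference of 3.41 log2 units, and all 6 that were measured lay above the background level on the arrays labelled Dab2-cKO and below it in WT. Rtp4, a chaperone for receptors that also restricts viral replication, had log2 signals of 8.51, 8.73 and 8.41 in Dab2-cKO, against 4.49, 4.78 and 4.59 in WT, at least 2.44-fold higher (3.93 ± 0.12, adjusted p = 7.63e-06). Lgals3bp, a secreted glycoprotein that binds galectins, had 9.66, 8.42 and 9.73 in Dab2-cKO, against 5.80, 5.77 and 5.86 in WT, at least 4.03-fold higher (3.46 ± 0.34, adjusted p = 0.00049). Samd9l, which restricts poxviruses and slows cell growth, had 8.77, 8.88 and 9.05 in Dab2-cKO, against 4.87, 6.0 and 5.48 in WT, at least 3.11-fold higher (3.45 ± 0.27, adjusted p = 0.000216). The spread lay in one array of Dab2-cKO for Lgals3bp and among the WT arrays, all dim, for Samd9l. Xaf1, an antagonist of the apoptosis inhibitor XIAP, was at least 5.12-fold higher, Ifi35 at least 4.88-fold and Ifi27l2a, a mitochondrial membrane protein, at least 5.44-fold.

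**Figure D2:**
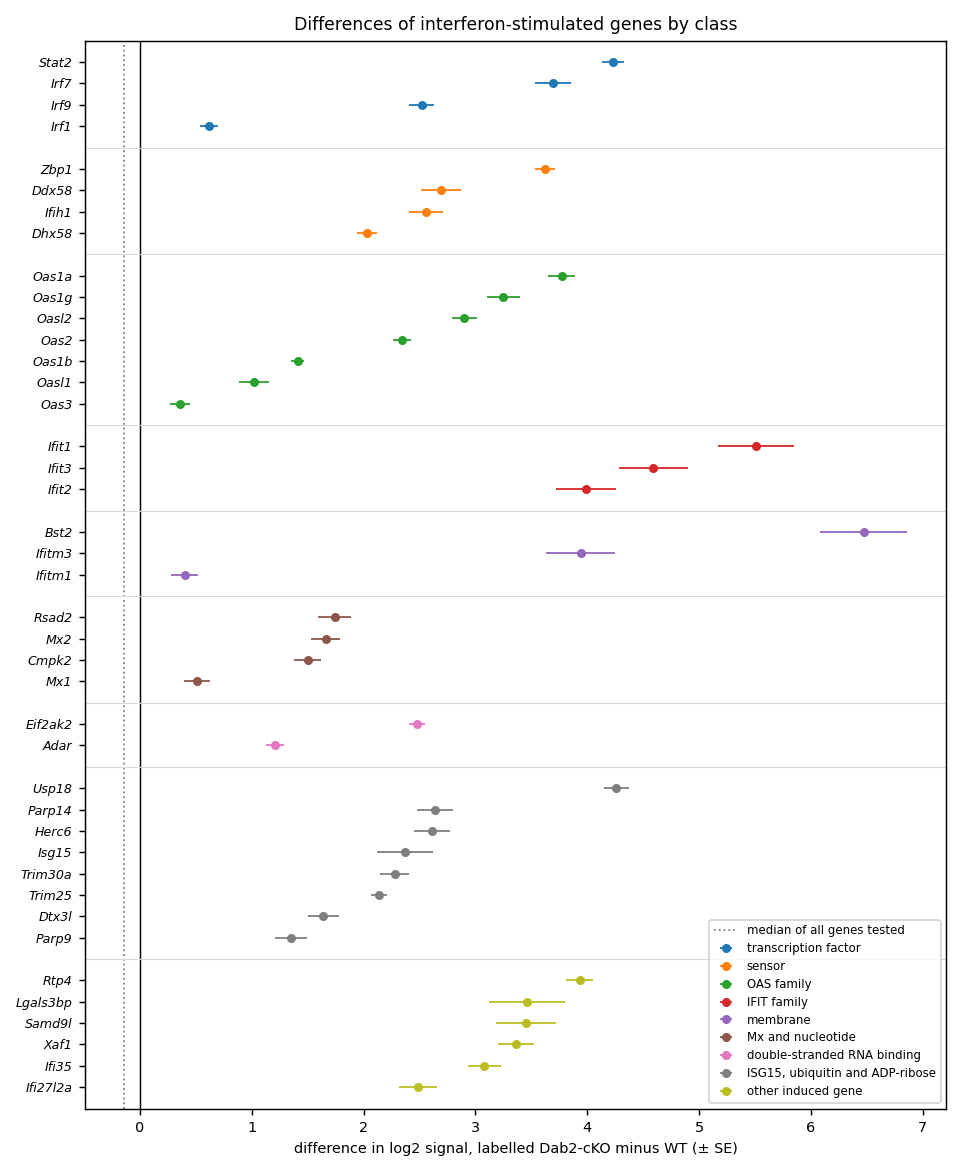
Difference in log2 signal, Dab2-cKO minus WT, for each of the 41 genes with its standard error from limma, grouped by class. All differences lie above 0, from 0.36 for Oas3 to 6.47 for Bst2, and the median over all genes tested is -0.14.

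The arrays of Dab2-cKO did not all stand at the same level. The SD over the 3 arrays was above 0.3 log2 units in 9 of the 41 genes on the arrays labelled Dab2-cKO and in 6 of the 41 in WT. Those 9 were Bst2, Lgals3bp, Ifit1, Ifit3, Ifit2, Ifitm3, Ddx58, Herc6 and Parp14, and in 8 of them, all but Ifitm3, replicate 2 was the lowest of the 3 arrays. Over all 41 genes replicate 2 was the lowest Dab2-cKO array in 22 (53.7%), against 27.1% of all genes tested. The median gene of the set stood 0.09 log2 units below its group mean on that array. Without replicate 2 of Dab2-cKO the difference was 5.87 log2 units for Ifit1, 4.29 for Ifit2, 4.90 for Ifit3, 6.80 for Bst2 and 3.88 for Lgals3bp. On the same array the summed linear signal was the lowest of the group in 8 of 9 lists of cell type markers, all but the leukocyte list. Its sums were 54800, 53300 and 51100 on replicates 1, 2 and 3. The gaps were unlike in size. The hair shaft and inner root sheath sums were nearly level, 975, 957 and 959 on replicates 1, 2 and 3, and the endothelial sums were 6460, 5160 and 6580. The sum of 12 interferon-inducible GTPase genes was 4150 on replicate 2, against 6910 and 8190 on the other arrays. The part of other cell types in these array differences was not tested.

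**Figure D3:**
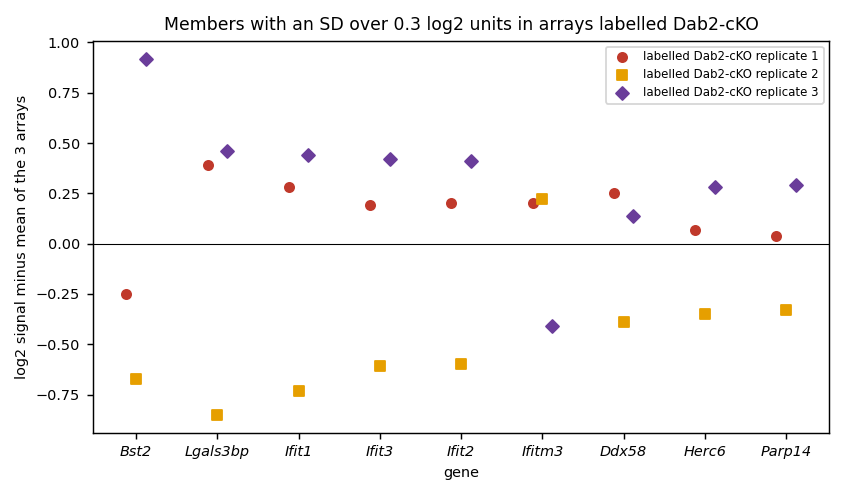
Log2 signal minus the mean of the 3 arrays labelled Dab2-cKO, on each of these arrays, for the 9 genes with an SD over 0.3 log2 units there. Replicate 2 is the lowest array in 8 of the 9 genes, all but Ifitm3. Its lowest points are Lgals3bp, Bst2 and the IFIT genes.

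Genes for the interferons themselves were too dim to measure. Of 16 measured genes for type I interferons none was higher and 7 were lower on the arrays labelled Dab2-cKO. Of all genes tested 18.2% were higher and 32.4% lower. The 16 genes had a median difference of -0.25 log2 units, and all lay below the background level in both groups. Ifnb1 had a difference of -0.03, with a 95% interval from -0.38 to 0.32 (adjusted p = 0.888), and Ifna1 was 0.84 log2 units lower (SE 0.11, adjusted p = 0.00116). Ifng, the only type II interferon, had a difference of 0.02 (-0.13 to 0.18, adjusted p = 0.793), and both measured genes for interferon lambda were lower, Ifnl3 by 0.37 and Ifnl2 by 0.34. The calls of these dim genes turned with the scaling, and so did those of all genes. With the arrays centred on the olfactory and vomeronasal receptor genes, 10 of the 16 were higher and none was lower, with a median of 0.54. That centring called 22552 of all 30738 genes higher and 2400 lower, with a median of 0.66. Signals below the background level give no measure of how much interferon mRNA was present.

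Of 9 receptors and kinases of the pathway 8 were higher on the arrays labelled Dab2-cKO and none lower, beside 18.2% of all genes higher, with a median difference of 0.68 log2 units. Ifngr1, the ligand-binding chain for interferon gamma, had log2 signals of 9.84, 9.44 and 9.85 in Dab2-cKO, against 7.44, 7.39 and 7.39 in WT, and was 4.93-fold higher (2.30 ± 0.13). Ifnar2, a chain of the receptor for type I interferon, had 9.51, 9.39 and 9.0 in Dab2-cKO, against 7.25, 7.21 and 7.37 in WT, and was 4.07-fold higher (2.02 ± 0.14). Jak1, the kinase shared by all interferon receptors, was 3.27-fold higher, Jak2 1.61-fold and Ifngr2 1.51-fold. Ifnar1, the other chain for type I interferon, was at least 1.52-fold higher and Il10rb, a chain of the lambda receptor, at least 1.10-fold, and Tyk2 had a difference of 0.61. Ifnlr1, the specific chain for interferon lambda, had a difference of -0.03 (adjusted p = 0.745). With centring on the array's positive control rows 4 of the 9 were higher, where 2599 of all 30738 genes were. Of 14 adaptors and kinases of nucleic acid sensing, 11 were higher and none lower (median 0.54), with differences of 1.74 for Sting1, the adaptor for cytosolic DNA, and of 1.12 and 1.08 for the endosomal receptors Tlr9 and Tlr3. The means of 11 of the 14 lay below the background level in both groups, those of Sting1 and Tlr9 among them. With the positive control rows 6 of the 14 were higher.

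Most genes on the lists of GTPases, MHC class I and other induced genes were higher too. Of 12 interferon-inducible GTPase genes, whose products attack the vacuoles of pathogens, 10 were higher and 1 was lower (median difference 2.13 log2 units), with Gbp7 at least 15.8-fold higher, Gbp4 at least 7.2-fold and Gbp9 at least 5.25-fold. Replicate 2 was the lowest Dab2-cKO array in 9 of those 10 genes. All 14 genes of MHC class I antigen presentation were higher (median 1.47), among them B2m, the light chain of the complex, at 13.5-fold, H2-K1, a heavy chain, at 3.89-fold and Psmb10, a subunit of the immunoproteasome, at least 3.21-fold. Of 52 genes on a list of other interferon-induced genes 41 were higher and 2 lower (median 1.04), and 3 of the 41 (Tap1, Psmb8 and Psmb9) also stand in the MHC class I list. In both groups 28 of the 52 lay below the background level. Ifi204 was 26.3-fold higher, Ifi207 at least 24.3-fold and Ifi211 at least 11.2-fold, all of them members of the PYHIN family of DNA-binding proteins. Of 8 negative regulators 5 were higher (3 with the positive control rows) and 1 lower (median 0.59), with differences of 3.23 for Samhd1, which breaks down deoxynucleotides, 1.61 for the phosphatase Ptpn6 and 1.48 for Irf2, a repressor of the response element. These counts stand beside the 18.2% of all genes that were higher. With the positive control rows 2599 of all 30738 genes were higher. None of the lists was tested as a set.

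**Figure D4:**
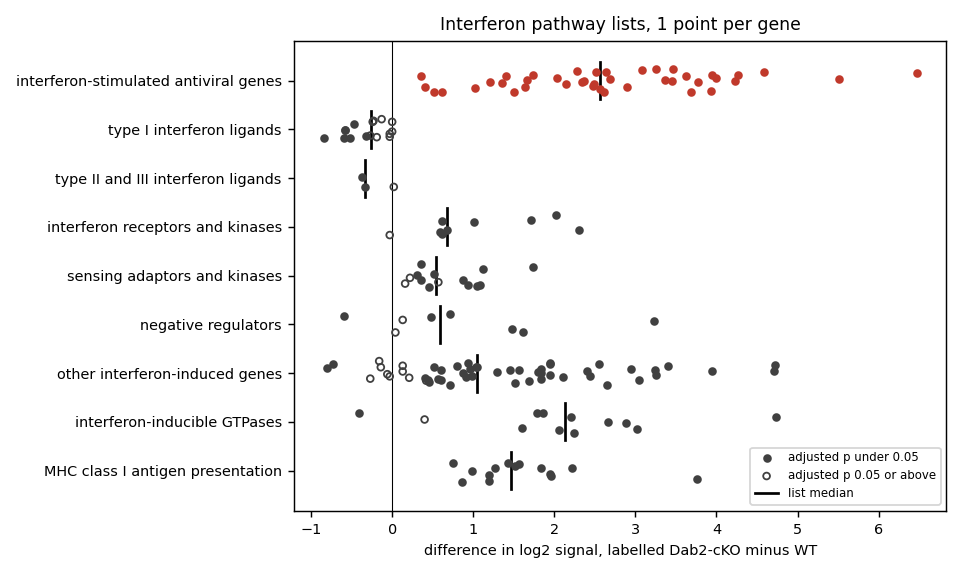
Differences in log2 signal, Dab2-cKO minus WT, for the genes of 8 other lists of the interferon pathway, 1 point a gene with the median of each list. The type I interferon ligands have a median of -0.25, the receptors and kinases 0.68, the interferon-inducible GTPases 2.13 and MHC class I genes 1.47.

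Markers of several other cell types were higher as well and those of others lower, and their values stand here because many cell types express interferon-stimulated genes. The sums below add the signals of a list on the linear scale, so the brightest genes of a list weigh the most in them. The counts stand beside 18.2% of all genes higher and 32.4% lower. Of 26 leukocyte markers 21 were higher and 1 lower, with sums of 51100 to 54800 on the arrays labelled Dab2-cKO, against 3010 to 3340 in WT. The brightest were Lyz2 and Mcpt4, with means of 14.39 and 14.17 log2 units in Dab2-cKO, against 9.91 and 9.0 in WT. Below the background level in both groups lay 13 of the 26. Ptprc, which encodes CD45 and defines leukocytes, had a mean of 7.66 ± 0.07 log2 units in Dab2-cKO and of 6.18 ± 0.13 in WT (SD, n = 3 each). Of 9 markers of plasmacytoid dendritic cells, a list that includes Bst2, 5 were higher and 1 was lower, and the defining Siglech lay below the background level in both groups with a difference of -0.12 (adjusted p = 0.338). All 15 endothelial markers were higher, with sums of 5160 to 6580 in Dab2-cKO, against 819 to 917 in WT, and Pecam1 had a mean of 9.35 ± 0.33 in Dab2-cKO and of 6.70 ± 0.16 in WT. All 14 fibroblast markers were higher, with sums of 584000 to 699000 in Dab2-cKO, against 168000 to 202000 in WT, and of 14 adipocyte and muscle markers 11 were higher and none lower. Of 8 markers of the suprabasal epidermis 6 were higher and 1 lower, and Krt1, a keratin of differentiating epidermis, had log2 signals of 17.69, 16.36 and 17.67 in Dab2-cKO, against 9.88, 9.99 and 9.96 in WT. All 13 markers of the inner root sheath and hair shaft were lower, with sums of 957 to 975 in Dab2-cKO, against 1410000 to 1650000 in WT. Growing follicles are known to express these genes. The study staged the WT follicles as anagen II at this age, and the part of the hair cycle phase in these values was not tested. Whether the labels of the arrays are right was not tested. Of 11 melanocyte markers 9 were lower and 1 higher. Of 16 markers of HFSCs 8 were higher and 5 lower, and Krt14, the basal keratin, had a mean of 16.60 ± 0.24 in Dab2-cKO and of 15.64 ± 0.13 in WT. Cd34 and Itga6, the genes of the sorting markers, had differences of 2.45 and 1.10 log2 units. The 5 lower genes were Lgr5 (-1.63), Sox9 (-1.04), Lhx2 (-0.93), Tbx1 (-0.89) and Foxc1 (-0.48), each with a mean below the background level in Dab2-cKO. The part of these cell types in the higher signals of the interferon-stimulated genes was not tested.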

How the data were processed

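HFSCs were sorted from trypsin-treated dorsal skin with antibodies against CD34 and α6-integrin, and amplified RNA was hybridised to Affymetrix mouse whole-transcript arrays. The values deposited by the authors are log2 signals made with RMA in Affymetrix Expression Console, as named without versions in the submitters' processing notes. RMA makes the arrays' probe distributions equal, which hides any change in total RNA per cell. For the array annotation, a genome build is not given in the sources used.

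Of 72688 rows, 6732 control rows were left out. Of the 65956 transcript rows, 31292 named exactly 1 gene, 1522 several and 33142 none here. Where a gene had several rows (439 genes) the brightest was taken, leaving 30738 genes. Symbols were updated through a RefSeq table of GRCm38.p6, which held 30736 of them. The difference between Dab2-cKO and WT was fitted with limma (version 3.58.1, R 4.3.3) on all 6 arrays without a covariate, after the script had been tested on simulated data. Two-sided P-values were corrected by Benjamini-Hochberg over all genes, with a threshold of 0.05, and ± beside a difference is limma's moderated SE. Precision is limited by the 3 arrays a group.

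The genes, their classes and the other lists were chosen with earlier results of these data known. By the rule for named genes, all members were named, with full statistics for all transcription factors and sensors and for the 3 with the highest difference in each other class. For pathway lists up to 3 genes past the threshold were named, and all receptors and kinases. Isg15, Oas3, Ifitm1, Mx1, Ifit3b, Ifnb1, Ifng, the lambda interferons, Ifnlr1 and Krt1 were given more values after these were seen. So were Lyz2, Mcpt4, Cd34, Itga6 and the lower markers of HFSCs. Alternatives were the row with the lowest mean, rows naming several genes kept, protein-coding genes alone, median centring, quantile normalisation, centring on olfactory and vomeronasal receptor genes, a filter at the background level, limma-trend, a replicate block, leaving out each array, and, added after seeing the data, centring on positive control rows. A comparison of protein sequences was not made.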

Additional observations from a re-analysis of the deposited data

How the results depend on the processing

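Under each alternative, the genes of the set that it tested had a higher signal in Dab2-cKO than in WT, with 1 exception: with the dimmer row of a gene in place of the brighter, Irf1 had a difference of -0.09 log2 units (adjusted p = 0.552). Without each array in turn, 40 to 41 of the 41 genes were called higher, and the median difference of the set ran from 2.50 to 2.68. In either direction 12387 to 14156 genes in all were called, against 15555 with every array, or 50.6% of all genes tested. Calls of pathway genes also count either direction, and 90 to 95 were called, against 99 with every array. Ifitm1 was not called without replicate 1 of WT (adjusted p = 0.0833), replicate 3 of WT (0.0905) or replicate 1, 2 or 3 of Dab2-cKO (0.0767, 0.0509 and 0.0878). Scaling moved the level of all genes. The median difference of all genes was -0.14 as deposited, 0.07 after median centring, 0.04 after quantile normalisation, 0.66 with receptor gene centring and -0.48 with positive control rows, and 36.1%, 58.5%, 55.7%, 90.4% and 14% of the calls were higher. The median of the set was 2.77 with median centring, 3.36 with receptor gene centring and 2.22 with positive control rows, shifts that centring gives to every gene alike. With quantile normalisation it was 2.66, or 2.63 above the median of all genes, against 2.70 as deposited. Positive control rows, an alternative chosen after seeing the data, left 37 of 41 called, without Irf1 (0.21), Oas3 (0.947), Ifitm1 (0.81) and Mx1 (0.455). Receptor gene centring called 24952 genes. With genes above the background level alone, 6053 genes were called, 49.6% of them higher, along with 56 pathway genes. The set had 30 genes there with a median of 3.17, but all except Isg15 passed that filter through Dab2-cKO alone, so their direction is fixed by the filter. Among protein-coding genes 48.1% of calls were higher. Between arrays that share a replicate number, deviations from the group means over all genes correlated at -0.08, -0.22 and -0.02. These values show no pairing, but with 3 arrays a group and many dim genes they cannot exclude it. With the replicate number as a block 12713 genes and 39 of the 41 were called, without Oas3 (adjusted p = 0.0554) and Ifitm1 (0.0719), the median stayed at 2.56, and 93 pathway genes were called.

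With 3 arrays a group, the 11 genes below the background level in both groups have differences between dim signals, and folds given as at least are lower limits.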

Other observations

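The genes below were chosen after their values were seen and are given as values alone. Of the copies of the OAS1 cluster outside the list, Oas1f had a mean of 10.97 log2 units in Dab2-cKO and of 8.02 in WT, a difference of 2.95. The others lay below the background level in both groups, with differences of 0.45 for Oas1c, 0.42 for Oas1e, -0.03 for Oas1d and -0.06 for Oas1h. Probes may be shared between these copies. In the PYHIN family Ifi204 had a mean of 12.20 in Dab2-cKO and of 7.49 in WT, Ifi207 one of 11.86 in Dab2-cKO and of 7.16 in WT, and Ifi211 one of 10.75 in Dab2-cKO and of 6.79 in WT, while Ifi213, below the background level in both groups, had a difference of -0.73. Among the Schlafen genes, known as interferon-induced regulators of growth in lymphocytes, the difference was 3.26 for Slfn5, 1.80 for Slfn2, 1.69 for Slfn8, 0.91 for Slfn1 and 0.56 for Slfn9, and only Slfn5 lay above the background level, in Dab2-cKO.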
